A study of Triticum aestivum with 4 samples.

Results

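Enzymes that remove reactive by-products of stress metabolism were followed in wheat seedling roots through 4 genes. These were PER1 and TaPrx1, read as peroxidases from their names, the catalase CAT1, and lgul, the lactoylglutathione lyase also known as glyoxalase I. The members were all probe sets whose symbol or synonym in the annotation of the array is one of these names, which gave 10 of 61179 probe sets and 4 of 771 annotated genes. PER1, CAT1 and lgul had 2 probe sets each and TaPrx1 had 4. A probe set is a group of short probes for 1 transcript, and its level is a background-corrected intensity in arbitrary units, called the signal here.

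RNA came from roots of 2 common wheat (Triticum aestivum) cultivars, Luohan No.2 and Chinese Spring, hybridised to 1-colour Affymetrix wheat arrays with 1 array for each of 4 groups. These were Luohan No.2 in polyethylene glycol (PEG), Luohan No.2 in tap water, Chinese Spring in PEG and Chinese Spring in tap water. PEG was given for 6 h to seedlings at the 2-leaf stage at an osmotic potential of -0.49 MPa. It withdraws water from around the root without entering the cells and is used to imitate drought. The labels give neither plant age in days nor the number of seedlings in a sample, and no array has a replicate, so a ratio of 2 arrays carries no error between plants and has no test.

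Hydrogen peroxide accumulates in roots that lose water and is broken down by catalases, which act mainly in peroxisomes, and by peroxidases, which use it to oxidise another substrate. Methylglyoxal is a toxic side product of sugar breakdown. Glyoxalase I converts the adduct of methylglyoxal and glutathione to S-lactoylglutathione, and a further enzyme, glyoxalase II, releases lactate from it and returns the glutathione. The annotation lists "peroxidase" as another name of PER1 and Prx1 as another name of TaPrx1. It gives no product description, so whether either gene encodes a classical peroxidase or a peroxiredoxin is not known here.

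Signals of the 4 genes were low. A signal below 25 is called near background in what follows, and 10.6, the 40th percentile of all signals, was used as a floor: lower signals were set to it before a ratio was taken. A ratio with 1 array at the floor is a bound, written as "at least". Of the 10 probe sets, 1 on the Luohan No.2 PEG array, 2 on the Luohan No.2 water array, 4 on the Chinese Spring PEG array and 2 on the Chinese Spring water array reached 25. Over all probe sets that share was 38.8%, 39.4%, 44.9% and 45.2% of the arrays' probe sets in the same order.

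The arrays themselves differed in the low range, and the difference ran with the cultivar. The median signal over all probe sets was 13.9 and 13.5 on the Luohan No.2 PEG and water arrays and 20.2 and 20.3 on the Chinese Spring PEG and water arrays. For the spiked control transcript dap, whose RNA comes from a bacterium and not from the plant, the ratio of the signals of its 5' and 3' probe sets was 0.0598 and 0.0760 on the Luohan No.2 PEG and water arrays and 0.320 and 0.372 on the Chinese Spring PEG and water arrays. The controls phe and thr were also lower on both Luohan No.2 arrays, at 0.0327 to 0.195, than on both Chinese Spring arrays, at 0.373 to 0.532. For sucrose synthase, a transcript of the plant itself, this ratio was 0.0216 and 0.0554 on the Luohan No.2 PEG and water arrays. It was 0.0693 and 0.0805 on the Chinese Spring PEG and water arrays, so the 2 Luohan No.2 arrays also differed from each other. Genes of leaf plastids, read as a sign of green tissue, were lower in sum on the Luohan No.2 arrays as well. Signals of the 34 probe sets of the 5 such genes found (PsbO, PsbP, petC, PRK and rbcl) added up to 5789 and 5933 on the Luohan No.2 PEG and water arrays and to 15835 and 16869 on the Chinese Spring PEG and water arrays, and without rbcl to 61.1, 99.0, 336.4 and 672.4 in that order. No root marker was listed, so the tissue label was not checked. The part of these differences in the cultivar and PEG results below was not tested.

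PER1 was the member gene with signals above background on most arrays, and in Chinese Spring both of its probe sets were higher after PEG. Ta.14503.1.S1_at had a signal of 51.6 in PEG and 37.8 in water in Luohan No.2. In Chinese Spring it had 126.5 in PEG and 49.2 in water. The Chinese Spring PEG array stood above the other 3, which lay between 37.8 and 51.6. For Luohan No.2 the PEG to water ratio was 1.37, and for Chinese Spring it was 2.57.

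The other PER1 probe set, Ta.24688.2.S1_a_at, gave 18.2 in PEG and 32.1 in water in Luohan No.2, and 57.6 in PEG and 28.6 in water in Chinese Spring. Again the Chinese Spring PEG array was highest, but here the Luohan No.2 PEG array was lowest, the only value of PER1 that was near background. With PEG the log2 change in Luohan No.2 was -0.82, whereas that in Chinese Spring was 1.01. The letter a in its suffix marks probes shared by several transcripts, which may include forms that Ta.14503.1.S1_at does not read.

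The 2 PER1 probe sets thus differed in their log2 PEG change by 1.27 for Luohan No.2 and by 0.35 for Chinese Spring. Among 405 pairs of probe sets paired with the same gene (168 genes) and above the floor on all 4 arrays, the median gap was 0.33 for Luohan No.2 and 0.25 for Chinese Spring. In Luohan No.2 8.40% of these pairs were at least as far apart as those of PER1, and in Chinese Spring 37.5% were. No single direction of PEG change can therefore be given for PER1 in Luohan No.2, while in Chinese Spring both probe sets were higher in PEG. The difference between the responses of the cultivars was not tested. In RNA from whole roots, fewer cells that express a gene and less of its RNA per cell cannot be told apart.

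**Figure D1:**
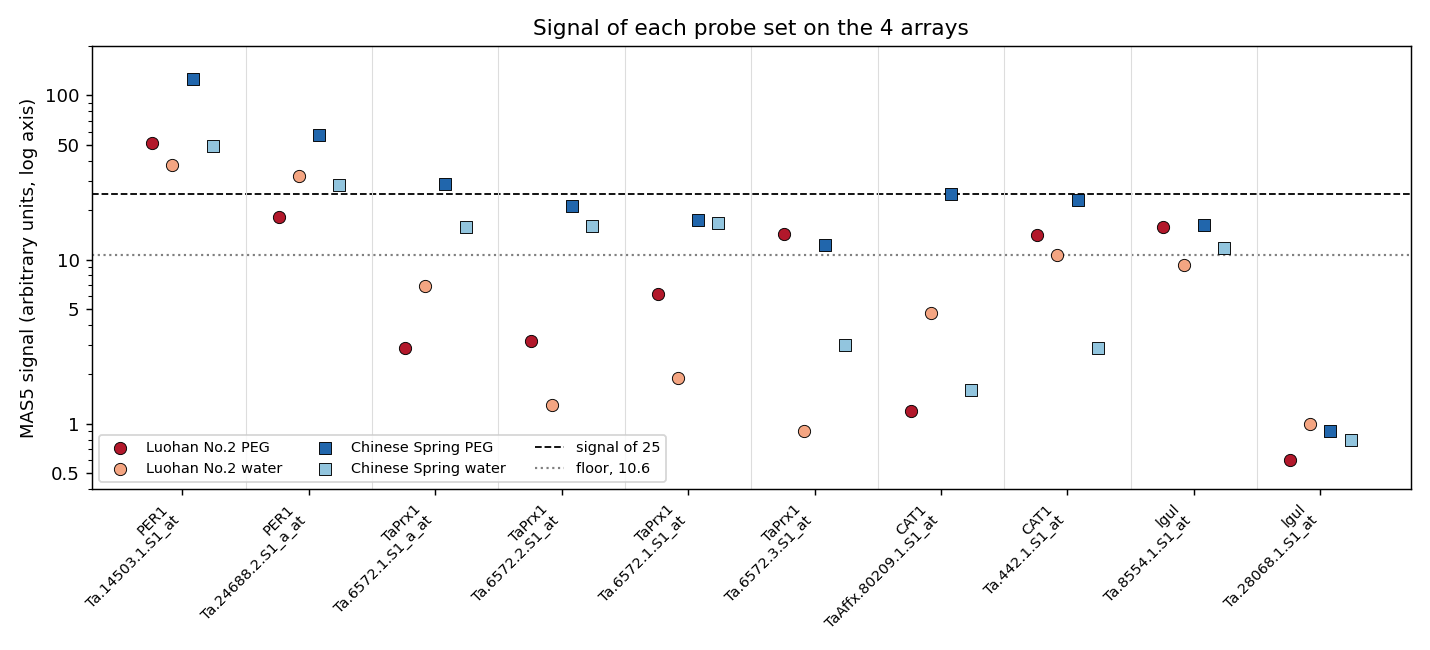
Signal of the 10 probe sets (columns, by gene) on the 4 arrays, on a log axis in arbitrary units, 1 point per array. The dashed line is a signal of 25 and the dotted line the floor of 10.6. PER1 holds 7 of the 9 points above the dashed line, the other 2 being Chinese Spring PEG points of TaPrx1 (29.0) and CAT1 (25.2).

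TaPrx1 was near background on both Luohan No.2 arrays by all 4 of its probe sets. Ta.6572.1.S1_a_at had 2.9 in PEG and 6.9 in water in Luohan No.2, and 29.0 in PEG and 15.8 in water in Chinese Spring. The value of 29.0 was the only one of 16 TaPrx1 signals that reached 25. Its PEG to water ratio in Chinese Spring was 1.84.

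Ta.6572.2.S1_at had signals of 3.2 in PEG and 1.3 in water in Luohan No.2, and 21.3 in PEG and 16.1 in water in Chinese Spring. Ta.6572.1.S1_at, listed with the same source sequence as Ta.6572.1.S1_a_at, had 6.2 in PEG and 1.9 in water in Luohan No.2, and 17.4 in PEG and 16.6 in water in Chinese Spring. On these 3 probe sets both Chinese Spring arrays lay above both Luohan No.2 arrays, whose signals were all under the floor. In Chinese Spring the PEG to water ratios of Ta.6572.2.S1_at and Ta.6572.1.S1_at were 1.32 and 1.05.

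The fourth TaPrx1 probe set, Ta.6572.3.S1_at, had weak signals that were higher on both PEG arrays than on both water arrays. Its signal was 14.4 in PEG and 0.9 in water in Luohan No.2, and 12.2 in PEG and 3.0 in water in Chinese Spring. Both PEG arrays were above the floor and both water arrays below it, so the ratio for Luohan No.2 was at least 1.36, and that for Chinese Spring at least 1.15. All 4 of its signals were near background, and the Chinese Spring PEG signal stood at the 38.0th percentile of its array. With quantile normalization the probe set gave no PEG ratio in Chinese Spring, so the difference there depended on the scaling.

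CAT1 was above the floor in Chinese Spring only after PEG, on both of its probe sets. TaAffx.80209.1.S1_at had 1.2 in PEG and 4.7 in water in Luohan No.2, and 25.2 in PEG and 1.6 in water in Chinese Spring. Ta.442.1.S1_at had 14.1 in PEG and 10.6 in water in Luohan No.2, and 23.2 in PEG and 2.9 in water in Chinese Spring. On each the Chinese Spring PEG array was highest and the Chinese Spring water array was at 2.9 or less.

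The CAT1 signal in Chinese Spring was at least 2.38-fold higher in PEG than in water by TaAffx.80209.1.S1_at and at least 2.19-fold higher by Ta.442.1.S1_at. In Luohan No.2 the signal of Ta.442.1.S1_at in PEG was higher by at least 1.33-fold, with the water signal at the floor, and TaAffx.80209.1.S1_at was at the floor on both arrays. With the floor set at 25 in place of 10.6, the bound for TaAffx.80209.1.S1_at in Chinese Spring was a log2 change of 0.01, and Ta.442.1.S1_at had no value. The size of the CAT1 difference thus depended on where background was drawn.

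The glyoxalase I gene lgul stayed near background on every array. Ta.8554.1.S1_at had 15.8 in PEG and 9.3 in water in Luohan No.2, and 16.2 in PEG and 11.8 in water in Chinese Spring. In each cultivar the PEG array was the higher one, by at least 1.49-fold for Luohan No.2 and by 1.37-fold for Chinese Spring. Ta.28068.1.S1_at had 0.6 in PEG and 1.0 in water in Luohan No.2, and 0.9 in PEG and 0.8 in water in Chinese Spring. It was under the floor throughout, so it gave no PEG ratio.

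In Chinese Spring, 9 of the 10 probe sets had a PEG ratio and 4 of them were at least 2-fold higher in PEG (2 of PER1 and 2 of CAT1), against 9.89% of 46102 probe sets measured there. None was 2-fold lower, where 10.6% of all were. The CAT1 probe sets and 1 of TaPrx1 were above the floor on the PEG array alone, and such probe sets can only be higher in PEG. Of the 6 probe sets above the floor on both Chinese Spring arrays, 6 were higher in PEG and 2 were so by 2-fold, against 46.1% of 32909 probe sets that were higher by any amount. Ta.24688.2.S1_a_at of PER1 lay just inside the 2-fold limit at 2.01 and Ta.6572.1.S1_a_at of TaPrx1 just outside at 1.84.

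In Luohan No.2, 5 probe sets had a PEG ratio and 0 were 2-fold apart in either direction, against 7.65% higher and 10.1% lower of 38468 measured. Of the 5, 4 were higher in PEG, against 51.0% of all measured, and 1 was lower. Of those 4, 3 were above the floor on the PEG array alone. The members with a ratio had a median log2 change of 0.44 for Luohan No.2, where all measured probe sets had 0.02. For Chinese Spring the members had 0.88 and all measured probe sets -0.04.

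**Figure D2:**
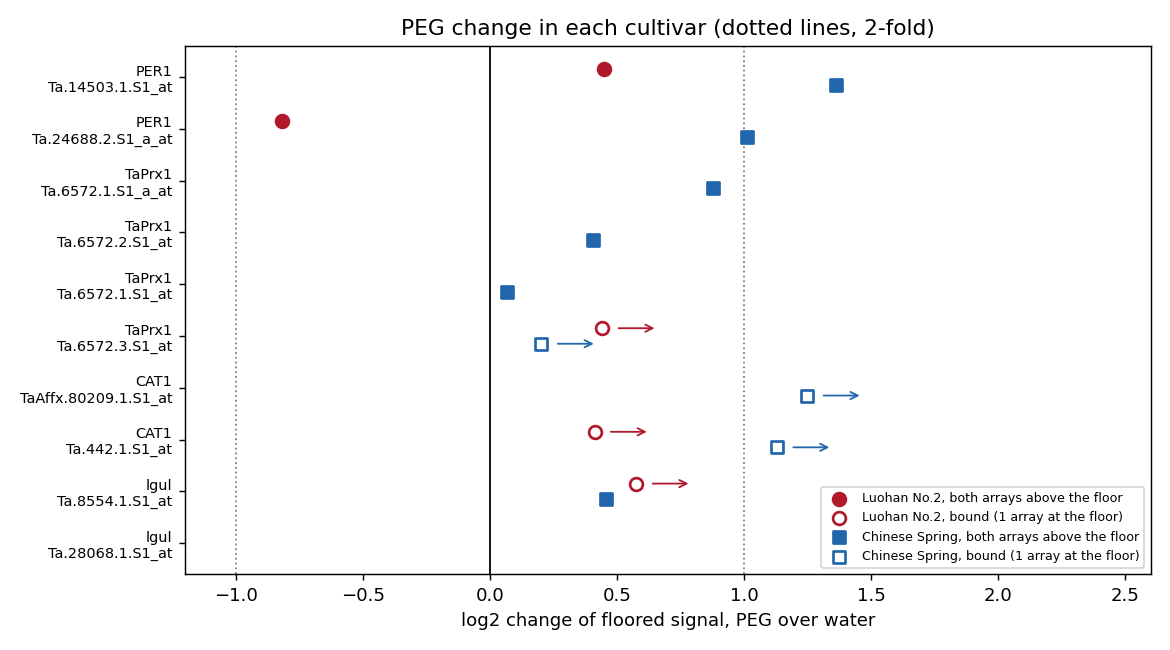
log2 change of the floored signal, PEG over water, for each probe set in Luohan No.2 (red circles) and Chinese Spring (blue squares). Filled symbols have both arrays above the floor, open symbols with arrows are bounds, and probe sets without a symbol were at the floor on both arrays. In Chinese Spring 9 of 9 symbols lie right of 0, where 47.6% of all 46102 measured probe sets were higher in PEG.

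The PEG effect over both cultivars was tested in 1 limma fit over 48877 probe sets with cultivar as a block, the sole replication that 4 arrays allow. The members tested were 9, and 0 of them passed an adjusted p of 0.05, against 1.32% of all probe sets. At an unadjusted p under 0.05 the count of members was also 0, against 9.49% of all. The trend version of limma gave 0 at both thresholds as well, as did median scaling, a pseudocount of 16 and the fit without the block. The filter for signals above the floor on all 4 arrays also gave 0. At an unadjusted p under 0.05 the limma count was 1 with quantile normalization and 1 with no filter. It was also 1 with the floor at the 20th percentile, at the 60th percentile or at 25.

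PER1 had a log2 PEG effect of 0.91 ± 0.43 (SE) by Ta.14503.1.S1_at, with a limma adjusted p of 0.545. By Ta.24688.2.S1_a_at it was 0.10 ± 0.48, with a limma adjusted p of 0.988. For CAT1 the effect was 0.77 ± 0.42 by Ta.442.1.S1_at and 0.62 ± 0.44 by TaAffx.80209.1.S1_at, with limma adjusted p of 0.650 and 0.791. The lgul probe set Ta.8554.1.S1_at had 0.52 ± 0.41 (limma adjusted p = 0.820), and the TaPrx1 probe sets had between 0.03 and 0.44 (limma adjusted p between 0.871 and 0.994). All 9 estimates were positive, against 48.6% of all probe sets tested. The CAT1 probe set TaAffx.80209.1.S1_at entered the fit through the Chinese Spring PEG array alone, and Ta.442.1.S1_at of CAT1 and Ta.6572.3.S1_at of TaPrx1 through the PEG arrays alone, so their sign was set by the filter. The fit takes its spread mainly from all probe sets together and floored values shrink the estimates, so these p-values say little about a weak transcript, and a p that misses the threshold does not show that PEG left it unchanged.

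Between the cultivars, 8 of 9 members with a ratio were lower in Luohan No.2 under PEG, against 60.5% of 43378 probe sets, and 5 of them were so at least 2-fold, against 16.3%. None was 2-fold higher, where 6.79% of all were. Of the 9, 4 were above the floor in Chinese Spring alone and could only come out lower in Luohan No.2, among them 3 of the 5. Of the 5 members above the floor on both arrays, 4 were lower in Luohan No.2, 2 of them at least 2-fold, against 56.0% of 30531 probe sets that were lower by any amount. The 5 that were at least 2-fold lower were both PER1 probe sets, the CAT1 probe set TaAffx.80209.1.S1_at, and Ta.6572.1.S1_a_at and Ta.6572.2.S1_at of TaPrx1. All 5 stayed so with median scaling. Quantile normalization brought TaAffx.80209.1.S1_at to -0.98 and Ta.6572.2.S1_at to -0.71 on the log2 scale, both under 2-fold. With the floor at 25 only the PER1 probe sets stayed at least 2-fold lower. TaAffx.80209.1.S1_at was then at -0.01, Ta.6572.1.S1_a_at at -0.21, and Ta.6572.2.S1_at had no value. In water 0 of 6 were 2-fold apart, against 15.2% lower and 6.16% higher of 42716. In PEG the median of all probe sets was itself -0.20 on the log2 scale, and in water it was -0.22.

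The Luohan No.2 to Chinese Spring log2 difference of PER1 was -1.29 in PEG and -0.38 in water by Ta.14503.1.S1_at, and -1.66 in PEG and 0.17 in water by Ta.24688.2.S1_a_at. By Ta.6572.1.S1_a_at the TaPrx1 signal of Luohan No.2 was lower by at least 2.74-fold in PEG and by at least 1.49-fold in water. Quantile normalization brought the median of all probe sets to 0.01 in PEG and -0.02 in water. The TaPrx1 bounds then came to -1.22 and -0.26 on the log2 scale. With the floor at 25 the PEG bound was -0.21, and with the floor at the 60th percentile it was -0.06. In water neither of these floors gave a value. The size of the TaPrx1 difference thus depended on where background was drawn. For lgul the log2 difference by Ta.8554.1.S1_at was -0.04 in PEG and at most -0.15 in water, and with quantile normalization it turned positive, at 0.52 in PEG and 0.14 in water. Sequence variants between the cultivars that alter hybridisation enter every such difference and cannot be told apart from transcript level here.

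In the limma fit with condition as a block, 0 of 9 members passed for the cultivar effect, against 2.06% of all probe sets, and 1 had an unadjusted p under 0.05, against 13.1%. That one was Ta.6572.1.S1_a_at of TaPrx1, with a log2 difference of -1.01 ± 0.43 (SE) and a limma adjusted p of 0.317. It was above the floor on the Chinese Spring arrays alone, so its sign was set by the filter and its difference is taken against the floor. PER1 had -0.84 ± 0.43 by Ta.14503.1.S1_at (limma adjusted p = 0.449) and -0.75 ± 0.48 by Ta.24688.2.S1_a_at (limma adjusted p = 0.588).

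**Figure D3:**
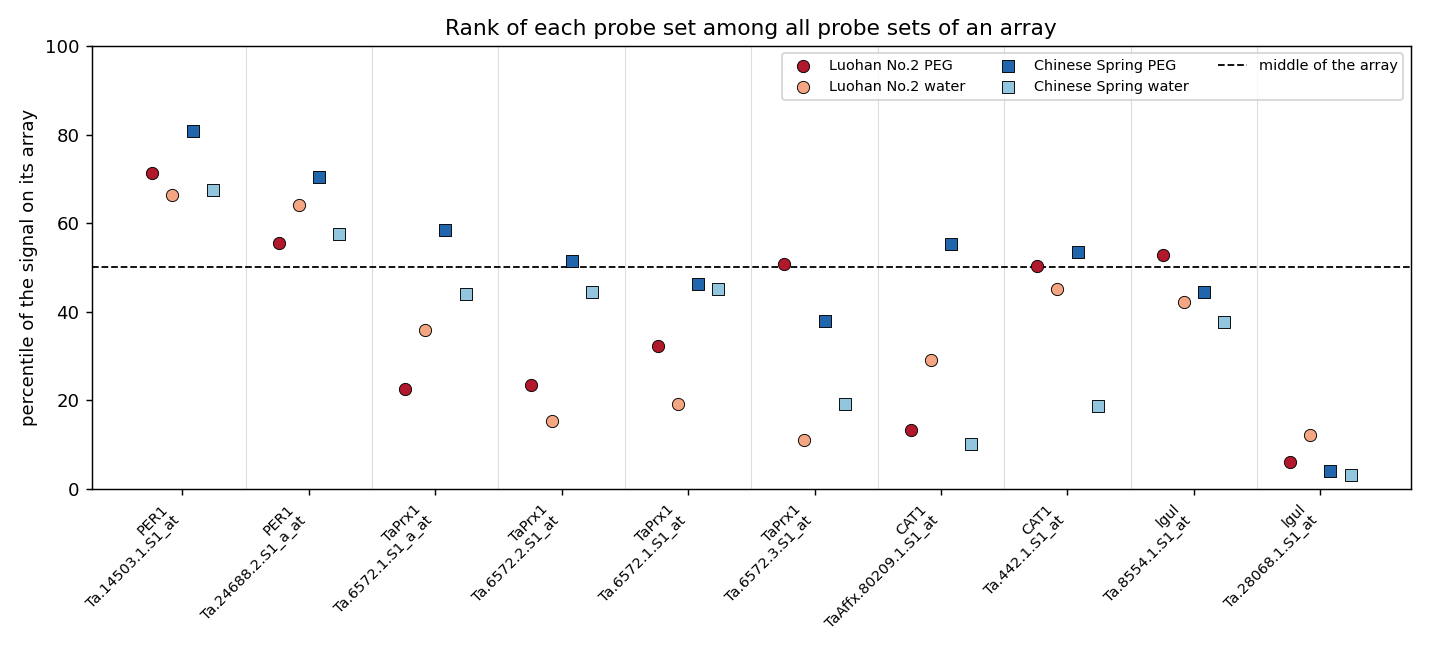
Percentile of each probe set's signal among the 61179 probe sets of its array, 1 point per array, which sets the same probe set side by side on arrays with unlike low ranges. The PER1 probe set Ta.14503.1.S1_at lay at the 80.7th percentile on the Chinese Spring PEG array and between the 66.3rd and 71.3rd on the other 3.

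Ranks within an array, which no scaling alters, kept the order of the Chinese Spring values. PER1 stood at the 80.7th percentile in PEG and the 67.6th in water by Ta.14503.1.S1_at, and at the 70.5th in PEG and the 57.6th in water by Ta.24688.2.S1_a_at. CAT1 stood at the 55.3rd in PEG and the 10.2nd in water by TaAffx.80209.1.S1_at. By Ta.442.1.S1_at it stood at the 53.4th and the 18.8th, again PEG before water. Both CAT1 water ranks are of signals under the floor, so the distance between PEG and water carries no size. TaPrx1 by Ta.6572.1.S1_a_at stood at the 22.6th and 35.8th percentile on the Luohan No.2 PEG and water arrays and at the 58.6th and 44.0th on the Chinese Spring PEG and water arrays. Both Luohan No.2 ranks are of signals under the floor, so their exact place carries no meaning. On the Luohan No.2 water array a signal of 10.6, the floor, stood at the 45.1st percentile. That is above the Chinese Spring water rank, so in water the ranks carry no order between the cultivars. In PEG they place Luohan No.2 below Chinese Spring only as a bound, without a size. For lgul the rank by Ta.8554.1.S1_at was the 52.8th on the Luohan No.2 PEG array and the 44.5th on the Chinese Spring PEG array, the reverse of the order of the signals.

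Of 64 gene names listed for peroxide and methylglyoxal metabolism, 2 further genes with 4 probe sets were found in the annotation: GSTZ1, a zeta-class glutathione transferase, and Trx-M, a plastid thioredoxin. None of the 4 probe sets passed the limma test for PEG in either direction. GSTZ1 was well above background, with 832.4 in PEG and 1363 in water in Luohan No.2 and 1061 in PEG and 944.9 in water in Chinese Spring by Ta.237.1.S1_a_at. All 3 of its probe sets were lower in PEG in Luohan No.2, by log2 changes between -0.54 and -0.71. In Chinese Spring they had between -0.32 and 0.33, with no common direction.

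Trx-M had signals of 10.3 in PEG and 0.7 in water in Luohan No.2 and 35.1 in PEG and 68.7 in water in Chinese Spring by Ta.136.1.S1_at. Both Luohan No.2 signals were under the floor, so it entered the fit through Chinese Spring alone and could only come out lower in Luohan No.2. Taken against the floor, the log2 difference was -2.21 ± 0.43 (SE) with a limma adjusted p of 0.0168, the 1 probe set of the 4 that passed for cultivar. With the floor at the 20th percentile, without the block, with no filter or without any 1 array, limma called 0 of all probe sets, this one included. Like the leaf plastid genes above, it belongs to the plastid.

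The named genes whose pattern over the 4 arrays was most like that of a member were sought among 117 probe sets of 74 genes that reached 25 on an array. Likeness was the root mean square difference of log2 floored signals, each centred on its own mean over the 4 arrays. Closest to both PER1 probe sets was Em (also listed as EMH2), a late embryogenesis abundant protein, by Ta.25025.1.S1_s_at, at 0.17 from Ta.14503.1.S1_at and 0.31 from Ta.24688.2.S1_a_at. CAT1 by TaAffx.80209.1.S1_at came next at 0.20 and 0.31, and TaPrx1 by Ta.6572.1.S1_a_at after it at 0.25 and 0.32. Em was also closest to that CAT1 probe set, at 0.04, and to that TaPrx1 probe set, at 0.21.

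These near matches share 1 feature, a high value on the Chinese Spring PEG array. Em and the CAT1 and TaPrx1 probe sets named above reached the signal needed to enter the search on that array alone. Most of their other signals were under the floor. Their shared high value and the small distances among them were therefore in part set by the filter and the floor. Em had signals of 0.6 in PEG and 8.6 in water in Luohan No.2 and 27.0 in PEG and 11.1 in water in Chinese Spring, 2 of the 4 under the floor. SAHH, the S-adenosylhomocysteine hydrolase of the methyl cycle, came after Em and PER1 in likeness to CAT1 at 0.23 and far above background, with 5639 in PEG and 4812 in water in Luohan No.2 and 9160 in PEG and 5656 in water in Chinese Spring. With 4 arrays and values at the floor, likeness of this kind is a description.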

How the data were processed

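Each deposited value was an intensity, not logged, for a probe set on an array. The authors made them with MAS5, per the submitters' processing notes, in a version not stated in the sources used. That method subtracts mismatch probes, so weak transcripts are noisy. The 2% trimmed mean over all probe sets was 100.02 on every array, the mark of 1 scaling factor per array. Depth does not apply to arrays; their number limits precision.

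Of 61290 probe sets, 111 controls were left out. Groups came from the cultivar and treatment labels. Genes were named through the platform annotation and gene identifiers in a RefSeq table (assembly IWGSC CS RefSeq v2.1). Signals were floored at their 40th percentile and log2 was taken. The fit used limma 3.58.1 in R 4.3.3 (lmFit, eBayes, Benjamini-Hochberg) over the probe sets that exceeded the floor on 1 or more arrays, with 1 residual degree of freedom and a prior of 11.6. It was tested on simulated data with equal noise, no floor and changes placed in bright probe sets only. That test does not bear on members near background. With PEG and cultivar both fitted, the 1 residual degree of freedom of a probe set holds the unequal PEG response of the cultivars. Noise of the arrays enters the same term and cannot be told apart from it. The p-values weigh an effect against this term and the spread over all probe sets, not against replicates. Part of that spread may be technical.

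Every probe set of the 4 genes is named. The members and lists were chosen with earlier results of these data known. Alternatives were other floors, a pseudocount of 16, other scalings, filters, priors and blocks, and leaving out each array. No sequences of probes, promoters or proteins were used here.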

Additional observations from a re-analysis of the deposited data

Results flagged for a closer look

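One result was flagged because the cultivars moved in opposite directions. PER1 by Ta.24688.2.S1_a_at had a log2 PEG change of -0.82 for Luohan No.2 and 1.01 for Chinese Spring, a difference of -1.83. The Luohan No.2 change rests on a PEG signal of 18.2, near background: a floor at 25 made it a bound of -0.36, and one at the 60th percentile a bound of -0.20, while the Chinese Spring change was 1.01 in both. The difference was not tested, since each cultivar has 1 array per condition. Opposite directions were found for 44.4% of the 35693 probe sets measured in both cultivars. For 20.5% the change was lower in Luohan No.2 and higher in Chinese Spring, so the direction alone does not set PER1 apart. The other PER1 probe set, Ta.14503.1.S1_at, was higher in PEG in both cultivars, with a difference of -0.91 between the log2 changes.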

How the results depend on the processing

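For PEG and for cultivar, 0 member probe sets were called in each of the limma settings run, including each array left out in turn (lowest and highest count 0 and 0, in a fit without the block, where the lone array of an arm is assumed to vary like the others). Over those settings the adjusted p of PER1 ranged from 0.344 to 0.924 by Ta.14503.1.S1_at for PEG, and that of TaPrx1 from 0.106 to 0.987 by Ta.6572.1.S1_a_at for cultivar. The log2 PEG effect of PER1 by Ta.14503.1.S1_at was 1.55 without the Luohan No.2 PEG array and 0.26 without the Chinese Spring PEG array. In fits with 1 array left out, some TaPrx1 and CAT1 probe sets had both arrays of an arm at the floor. Those values were equal by the floor, so the fit saw no spread between them and a small p says nothing about these members. The lowest adjusted p of TaPrx1 came from such a fit. The number at least 2-fold apart with PEG in Luohan No.2 was 3 with the floor at the 20th percentile, against 0, because signals under 10.6 then counted. In Chinese Spring it was 2 with the floor at the 60th percentile, 2 with the floor at 25 and 2 with quantile normalization, against 4. Other floors and the pseudocount keep the order of a pair of signals or leave no value, so they could not turn a sign. Only quantile normalization and median scaling could do so. Under these, no single log2 change that was 2-fold or more changed sign. Some changes had no value under a higher floor, such as that of Ta.442.1.S1_at of CAT1 in Chinese Spring with the floor at 25.

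Over all probe sets limma called 645 for PEG and 1005 for cultivar. With the floor at the 20th percentile, without the block, with no filter or without any 1 array it called 0 for each. For PEG it called 0 with the floor at the 60th percentile, 28 with the floor at 25, 404 with quantile normalization, 421 with median scaling, 391 above the floor on all arrays, 1151 with the pseudocount and 1327 with the trend prior. For cultivar these were 214, 265, 663, 748, 322, 1437 and 1349. Quantile normalization turned the cultivar split to 352 higher and 311 lower, from 395 and 610. The cause of these shifts was not tested. No paired analysis was possible because each group has 1 array, so a replicate block cannot be fitted; the 2 Luohan No.2 titles share a number but the Chinese Spring titles carry none, and the PEG fit already holds cultivar as a block. Signals near background on at least 1 array limit every member except PER1 by Ta.14503.1.S1_at.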
